A study of Saccharomyces cerevisiae with 8 samples.

Results

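The ectopic sites of Cse4, the budding yeast CENP-A, were examined in cells that overexpress the protein but retain the ubiquitin ligase Psh1. A site was counted as ectopic when a ChIP peak of the pGAL-3Flag-CSE4 strain overlapped no ChIP peak of the 3Flag-CSE4 strain by as much as 1 bp. This left 4026 of the 4043 pGAL-3Flag-CSE4 peaks, out of 18325 ChIP peaks in the 4 lists of the series. The other 17 overlapped the 17 peaks of 3Flag-CSE4, of which 16 lay over a centromere. Both strains were MATa W303 derivatives in which the endogenous CSE4 gene was deleted (cse4::KAN) and replaced by a Flag-tagged copy under the CSE4 promoter at URA3 (ura3-1::pCSE4-3Flag-CSE4::URA). The pGAL-3Flag-CSE4 strain differed by another tagged copy under the GAL promoter at LEU2 (leu2,3-112::pGAL-3Flag-CSE4::LEU2), and PSH1 was intact in both. All Cse4 in these cells was thus Flag-tagged. Asynchronous cultures grown in lactic acid received 2% galactose for 2 h, were crosslinked with 1% formaldehyde for 15 min and were digested with MNase, which cuts linker DNA and leaves nucleosomes. There was 1 input and 1 anti-Flag ChIP library per strain, so no difference could be set against a replicate spread, no test was made, and all intervals below cover counting error only. The lists give no read counts, so the depth behind a single site is unknown. By the library totals that the study states, the pGAL-3Flag-CSE4 ChIP library was several times deeper than that of 3Flag-CSE4, so depth differs along with the strain and its part in the number of sites was not tested.

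CENP-A is the histone H3 variant that marks the centromere and nucleates the kinetochore. In budding yeast a centromere is defined by its DNA sequence and holds a single Cse4 nucleosome. The remaining chromatin is built of H3 nucleosomes in regular arrays over genes, interrupted by nucleosome-depleted regions at promoters and often at transcript ends. Psh1 binds Cse4 and marks the molecules outside the centromere for degradation, while the chaperone Scm3 deposits Cse4 at the centromere.

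Sequences of ectopic sites were read from the R64 reference (the sacCer3 sequence) to set them beside that of a centromere. Shown are 3 of the widest sites outside the pericentromeres and the loci used to build the strains, the widest such site that overlapped no gene and lay between convergent gene ends, the SLP1 promoter site, the 4 sites of the longest chain at 200 bp spacing, and the 3Flag-CSE4 peak over CEN3. The first 3 are the central 300 bases of wider sites. All are the top strand, with capitals for matches to the centromere element III core (TTTCCGAAA), to a Cbf1 (CACGTG) or Reb1 (TTACCCG) site, or to runs of 7 or more A or T, on either strand. The only match to the centromere core among them is in CEN3. CEN3 is 1 of only 5 of the 16 centromeres that hold this exact core. Within 100 bp of the centre it was found in 0.224% of all ectopic sites. A contrast between CEN3 and a few sites therefore follows from the choice of example.
DHR2-PSG1 chrXI:291121-291420: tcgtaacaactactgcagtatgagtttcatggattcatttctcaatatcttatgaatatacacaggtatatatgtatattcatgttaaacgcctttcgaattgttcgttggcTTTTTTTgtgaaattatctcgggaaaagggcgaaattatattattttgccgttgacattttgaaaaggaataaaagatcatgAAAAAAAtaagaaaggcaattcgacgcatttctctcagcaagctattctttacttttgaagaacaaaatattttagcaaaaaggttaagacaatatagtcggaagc
KAP104-GAL7 chrII:273916-274215: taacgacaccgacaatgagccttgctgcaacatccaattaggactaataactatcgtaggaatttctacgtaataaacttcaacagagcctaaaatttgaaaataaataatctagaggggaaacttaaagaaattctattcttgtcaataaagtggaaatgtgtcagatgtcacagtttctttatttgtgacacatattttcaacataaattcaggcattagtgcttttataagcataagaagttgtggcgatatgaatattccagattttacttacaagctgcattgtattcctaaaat
TUF1-MSB1 chrXV:685451-685750: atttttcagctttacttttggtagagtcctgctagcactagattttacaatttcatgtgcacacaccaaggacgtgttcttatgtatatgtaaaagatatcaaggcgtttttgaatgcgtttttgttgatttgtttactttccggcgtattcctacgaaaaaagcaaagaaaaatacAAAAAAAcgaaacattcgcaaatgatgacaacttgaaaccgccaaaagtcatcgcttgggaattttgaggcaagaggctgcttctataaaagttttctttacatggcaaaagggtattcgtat
VMS1-TPI1 chrIV:555340-555630: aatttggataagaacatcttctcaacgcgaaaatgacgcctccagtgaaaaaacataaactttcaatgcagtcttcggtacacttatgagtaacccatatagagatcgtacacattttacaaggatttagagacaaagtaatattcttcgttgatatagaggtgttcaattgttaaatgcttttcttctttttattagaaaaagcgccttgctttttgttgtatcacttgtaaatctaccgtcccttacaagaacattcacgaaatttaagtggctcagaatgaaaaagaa
SLP1 promoter chrXV:624500-624740: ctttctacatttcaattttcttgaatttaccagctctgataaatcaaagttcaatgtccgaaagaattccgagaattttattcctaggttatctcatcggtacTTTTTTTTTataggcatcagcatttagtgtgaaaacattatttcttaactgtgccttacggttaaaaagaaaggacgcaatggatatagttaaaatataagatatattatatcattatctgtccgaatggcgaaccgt
CHS1 upstream chrXIV:275790-275840: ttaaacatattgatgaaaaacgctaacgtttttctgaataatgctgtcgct
CHS1 upstream chrXIV:275970-276040: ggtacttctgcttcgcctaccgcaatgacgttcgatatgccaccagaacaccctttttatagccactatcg
CHS1 upstream chrXIV:276160-276230: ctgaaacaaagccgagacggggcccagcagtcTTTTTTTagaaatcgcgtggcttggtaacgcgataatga
CHS1 upstream chrXIV:276350-276400: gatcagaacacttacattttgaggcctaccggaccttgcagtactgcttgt
CEN3 chrIII:114390-114510: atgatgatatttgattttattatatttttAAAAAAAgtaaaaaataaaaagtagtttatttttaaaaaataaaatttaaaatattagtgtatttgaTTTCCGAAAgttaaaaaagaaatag

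The first of these covered the space between the end of DHR2, an RNA helicase of ribosome assembly, and the start of PSG1, whose product stabilizes the plasma membrane proton pump. At its full 341 bp (chrXI:291100-291440) it began 48 bp past DHR2 and stopped 13 bp before PSG1. The site of 331 bp on chromosome II, which is just beyond 2 kb from GAL10, lay 197 bp past the end of GAL7, a galactose gene, and 197 bp upstream of KAP104, a nuclear import receptor. The site of 321 bp on chromosome XV began 97 bp past the end of TUF1, a mitochondrial translation elongation factor, and ended 7 bp before the start of MSB1, a bud site gene. The site of 291 bp on chromosome IV lay between the convergent ends of VMS1 and of TPI1, the glycolytic triose phosphate isomerase, 96 bp from TPI1. The A+T content was 68.7%, 68.0%, 64.3% and 66.3% in these 4 printed stretches, against 87.6% in the CEN3 peak. Together with the wide sites not printed, the 8 widest outside the construct loci and pericentromeres held 0 matches to the centromere core, to Cbf1 or to Reb1 within their central 300 bases. Over all ectopic sites such matches within 100 bp of the centre were also rare, at 0.224%, 2.01% and 2.16%. A count of 0 in 8 sites thus does not set the wide sites apart.

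The ectopic sites were narrow and numerous. Their median width was 71 bp, with quartiles at 61 and 101 bp, less than the 91 bp of the median input nucleosome of the same strain. The narrowest width, 41 bp, was that of 453 sites (11.3%). Only 243 sites (6.04%) were wider than the length of DNA wrapped in a nucleosome. Together the sites covered 334866 bp, or 2.77% of the nuclear genome. The closest ectopic sites, on chromosomes XI and XIII, lay 69 bp from a 3Flag-CSE4 peak. Among the 17 shared peaks, 13 lay wholly under a 3Flag-CSE4 peak. The smallest overlap was 18.6%, for a peak on chromosome IX at 355360 to 355580.

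The widest site, of 1391 bp, was over LEU2, which is also the marker of the pGAL construct. It covered 100% of the LEU2 gene (YCL018W, chromosome III, 91324 to 92418). Input peaks likewise covered 100% of the gene in pGAL-3Flag-CSE4 but 9.04% in 3Flag-CSE4, so the input differed between the strains at this locus. Within 2 kb of the genes used to build the strains lay 13 ectopic sites, of which 4 were at CSE4, 3 at URA3, 2 at LEU2 and 4 at GAL1-GAL10. Added copies of such sequences are part of the constructs, and their part in these peaks was not tested. Between GAL1 and GAL10, the divergent genes of galactose use whose intergenic region is the promoter of the construct, 2 sites covered 212 bp. Input peaks covered 81.0% of that region in pGAL-3Flag-CSE4 and 9.13% in 3Flag-CSE4. PSH1 (YOL054W, chromosome XV, 228614 to 229834) was overlapped by 8 input peaks in each strain and by 0 in both psh1Δ inputs, and had 1 ectopic site centred 69 bp upstream of its start and 1 in the 500 bp past its end.

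Of the loci that the study assayed by ChIP and quantitative PCR, the SLP1 and SAP4 promoters and the UTH1 gene were looked up here, and they differed. A locus without a site in this list had a signal below the height used for calling. At SLP1, which encodes a protein of the endoplasmic reticulum membrane, a site of 241 bp (chromosome XV, 624500 to 624740) was centred 109 bp upstream of the start. It began 125 bp past the end of PDR5, a drug efflux pump. SAP4, a phosphatase regulator, had 0 ectopic sites in the gene or in the 500 bp on either side, and the nearest was centred 2646 bp upstream of its start. UTH1 also had 0, with the nearest site centred 2188 bp downstream of its start.

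To ask how evenly Cse4 spread over the genome, sites were counted per chromosome. The number of sites followed chromosome length (Pearson r = 0.986 and Spearman rho = 0.992 over the 16 chromosomes, which share 1 library). There were 33.4 sites per 100 kb of the nuclear genome (95% exact Poisson interval 32.3 to 34.4). The density was lowest on chromosome I, with 52 sites or 22.6 per 100 kb (16.9 to 29.6). It was highest on chromosome III, with 127 sites or 40.1 per 100 kb (33.4 to 47.7), which is 1.78 times as high. The intervals of these chromosomes lie apart, and those of the other 14 hold the density of the genome. Both chromosomes were picked as the extremes of 16, for which the intervals and the ratio make no allowance. The interval of chromosome III starts at 33.44, barely above the 33.35 of the genome. Chromosome I also had the fewest input peaks, 265 per 100 kb against 330 in the genome, and the list held 85.2 ectopic sites per 1000 input peaks there, against 129 on chromosome III. Sites outside the pericentromeres, taken as 10 kb on each side of a centromere, were also counted per 100 kb of the whole chromosome. These values ran from 19.1 on chromosome I to 35.5 on chromosome XVI, with chromosomes III and II at 35.4 and 35.3. Chromosome III had 15 pericentromeric sites. The length was not reduced by the pericentromeres, which lowers the values of short chromosomes most. The values therefore do not rank the chromosomes by density outside the pericentromeres. The low value of chromosome I came with a stretch of 37568 bp at its right end without a site, from position 192651.

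**Figure D1:**
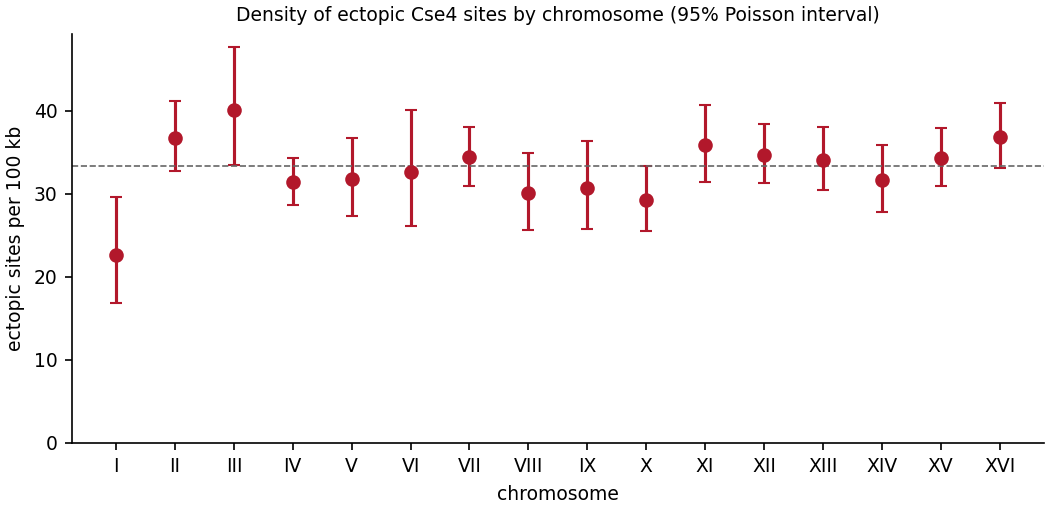
Ectopic Cse4 sites per 100 kb (vertical axis) on each of the 16 chromosomes (horizontal axis), with 95% exact Poisson intervals as bars and the density of the genome, 33.4, as a dashed line. The interval of chromosome I lies below the line and that of chromosome III just above it, while the other 14 cross it.

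Density was raised near centromeres and low near chromosome ends. Within 1 kb of a centromere there were 144 sites per 100 kb (46 sites, interval 105 to 192). The density was 53.1 between 2 and 5 kb (39.6 to 69.8), 49.4 between 5 and 10 kb (39.1 to 61.5), 40.6 between 10 and 20 kb (33.9 to 48.2), and 29.9 between 20 and 50 kb (26.5 to 33.6). Per input nucleosome the rise was mostly within 1 kb, where 37.4% carried a site (95% Wilson interval 29.6 to 45.9%). The share was 12.3% between 2 and 5 kb (9.42 to 15.9%) and 14.3% between 5 and 10 kb (11.6 to 17.4%). Between 10 and 20 kb it was 11.8% (10.05 to 13.9%), beside 10.04% of all nucleosomes. Every centromere had an ectopic site within 500 bp on at least 1 side, and 13 of 16 had sites within 500 bp on both. Of the 32 sites nearest to a centromere on either side, 29 were centred within 500 bp of it, at a median of 219 bp over all 32. The exceptions were the left sides of CEN9 and CEN14, at 2017 and 1376 bp, and the right side of CEN1, at 552 bp. On the left of CEN9 the rule itself removed a nearer pGAL-3Flag-CSE4 peak (chromosome IX, 355360 to 355580), because it overlapped the 3Flag-CSE4 peak beside that centromere. The pericentromeres held 193 sites in all (4.79%), from 8 on chromosome I to 16 on chromosome XII. In the first 5 kb of the chromosomes from either end, where input peaks were also scarce, there were 3 sites. Between 5 and 10 kb there were 14.4 per 100 kb (9.11 to 21.6), and beyond 100 kb 35.4 (34.1 to 36.6). As a share of input nucleosomes, those with an ectopic site made up 2.63% between 1 and 5 kb from an end (2 of 76, 95% Wilson interval 0.725 to 9.10%) and 9.83% between 5 and 10 kb (6.64 to 14.3%). The share was 10.3% beyond 100 kb (9.99 to 10.7%). Between 10 and 20 kb it was 7.69% (6.01 to 9.80%), and the intervals of this class and of the class from 1 to 5 kb lay below that of the chromosome interior.

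Few regions were free of sites, and few were crowded. In 1200 bins of 10 kb the mean was 3.35 sites and the variance 3.65, a ratio of 1.09. For the input nucleosomes of the same strain the ratio was 2.86. With 39777 input peaks against 4026 sites the means per bin differ, so these ratios are not directly comparable. There were 64 bins without a site (5.33%), 28 of them within 30 kb of a chromosome end. The fullest bin, on chromosome V and holding CEN5, had 11 sites. Of the 6 bins with 10 or more, 3 held a centromere or adjoined a bin that did. The longest stretch without a site was the rDNA on chromosome XII (39159 bp from position 451531), where the authors set ChIP coverage to 0 before calling. The next were the right end of chromosome I from FLO1 to PHO11, 33329 bp near the right end of chromosome VIII from YHR210C to PHO12, 32799 bp at the left end of chromosome VI, and 28439 bp at the left end of chromosome IX. These last 4 held 15, 26, 68 and 6 own-input peaks, fewer per kb than in the genome, and 7, 11, 21 and 1 ChIP peaks of psh1Δ pGAL-3Flag-CSE4. FLO1 is a flocculin with internal repeats, and PHO11 and PHO12 are near-identical acid phosphatase genes, and the part of repeated sequence in these stretches was not tested.

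Spacing between neighbouring sites had a broad and a narrow component. The median distance between centres was 2170 bp, with quartiles at 750 and 3989 bp, and 54.3% of the 4010 distances fell between 1 and 5 kb. A sharp maximum lay below this, near the distance of neighbouring nucleosomes. Of all distances, 741 (18.5%) were at most 300 bp, and 532 of these lay from 180 to under 260 bp. From 300 to 1000 bp there were only 398. The maximum did not coincide with that of the input nucleosomes. The commonest 20 bp class was 200 to 220 bp for the ectopic sites, with 169 distances, and 160 to 180 bp for the input nucleosomes, with 15510. The median distance among pairs at most 300 bp apart was 210 bp for ectopic sites and 175 bp for adjacent input nucleosomes. Pairs closer than 180 bp made up 19.0% of the former and 61.9% of the latter.

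**Figure D2:**
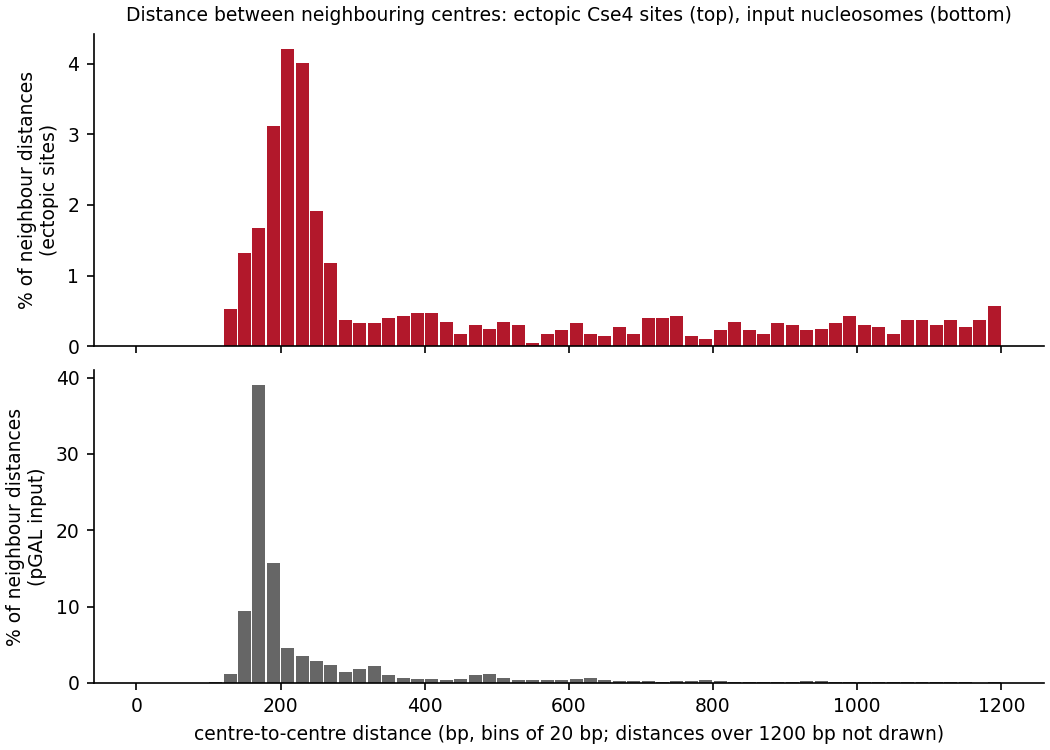
Percent of neighbour distances (vertical axes) by centre-to-centre distance in classes of 20 bp (horizontal axis), for ectopic sites (top) and for input nucleosomes of the pGAL-3Flag-CSE4 strain (bottom). The ectopic sites peak in the class from 200 to 220 bp, with 4.21% of distances, and the input nucleosomes from 160 to 180 bp, with 39.0%.

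A closer look at adjacent input nucleosomes showed where these pairs lay. Of 15510 adjacent nucleosomes with centres 160 to under 180 bp apart, 0.471% carried an ectopic site on both members (95% Wilson interval 0.375 to 0.591%) and 10.5% on 1 of them. Where the centres were 240 to under 260 bp apart, 11.5% carried a site on both (9.82 to 13.5%) and 35.9% on 1 (33.1 to 38.7%). At 260 to 300 bp the shares were 8.03% and 30.6%. Taken singly, an input nucleosome with a site had its farther neighbour at a median of 245 bp, and one without a site at 200 bp. Among intergenic nucleosomes alone the medians were 240 and 215 bp. Of the 741 site pairs, 654 (88.3%) had no input nucleosome centre between them, and the midpoint was intergenic in 614 (82.9%). The share of nucleosomes with ectopic Cse4 was thus higher beside wide linkers than in tight arrays. Of the pairs, 299 had a gene start but no gene end within 150 bp of their span, 98 an end but no start, 181 both and 163 neither.

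**Figure D3:**
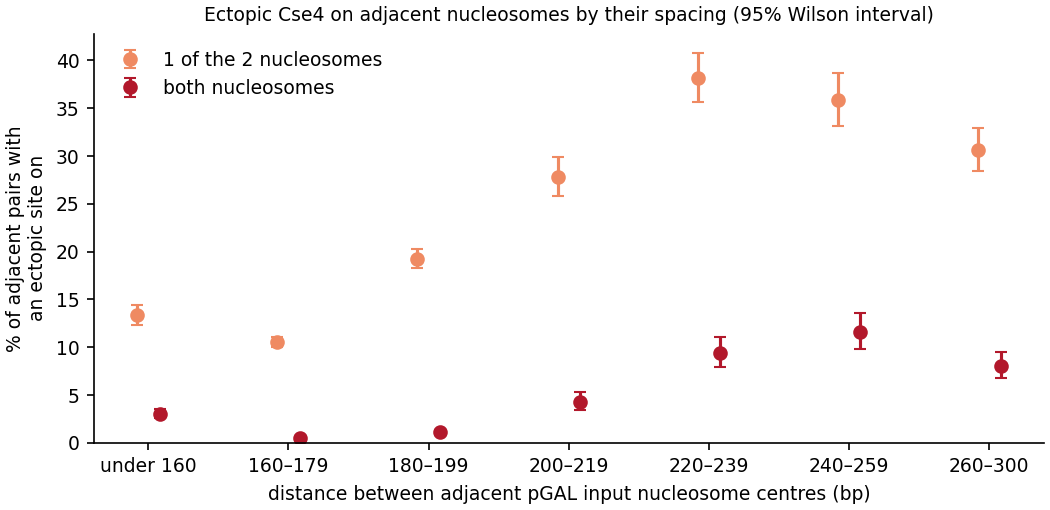
Percent of adjacent input nucleosome pairs (vertical axis) with an ectopic site on 1 member or on both, by the distance between the centres of the pair in bp (horizontal axis), with 95% Wilson intervals as bars. Both shares are lowest from 160 to under 180 bp, and they are highest from 220 to under 240 bp for 1 site, at 38.2%, and from 240 to under 260 bp for both, at 11.5%.

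Clusters of sites were short. With neighbours chained up to 200 bp between centres, 3451 sites stood alone, and the rest formed 251 pairs, 23 groups of 3 and 1 of 4, so that 14.3% of sites had a neighbour (13.2 to 15.4%). This distance divides the spacing maximum. At 300 bp, 35.5% of sites had a neighbour (34.0 to 37.0%), in 639 pairs, 42 groups of 3 and 6 of 4, and no group exceeded 4. At 150 bp the share was 2.98%. The group of 4 at 200 bp, whose sequences are shown above, ran over 611 bp of chromosome XIV (275790 to 276400), across the end of YNL193W to 102 bp before CHS1, a chitin synthase gene. Its centres were 190, 190 and 180 bp apart. The 9 next groups by length, with 3 sites each over 441 to 471 bp, lay at the YBR292C, YGL194C-A (beside HOS2, a histone deacetylase), SEC1, HXT1 and ERV15 genes and in the MAL13-MAL11, YCK3-DSE1, YOR072W-SUF11 and BAP3-HEM12 intergenic regions. The SEC1 group began at the start of this gene of exocytosis and ran upstream on chromosome IV (784200 to 784660). The longest group at 300 bp covered 831 bp of the CDC34-PST1 region on chromosome IV (562450 to 563280), between the start of the ubiquitin-conjugating enzyme CDC34 and a cell wall protein gene. A group of 4 also lay upstream of MCD1, the cohesin kleisin subunit, with centres 215, 215 and 210 bp apart.

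To place the sites relative to genes, annotated gene boundaries were used. They are those of the coding sequence in all 6002 nuclear protein-coding genes, so transcript ends lie outside them. By the centre, 2914 sites (72.4%, interval 71.0 to 73.7%) were intergenic, against 29.3% of input nucleosomes of the same strain, and 791 (19.6%) were in genes, against 66.8%. Of own-input nucleosomes in intergenic DNA, 22.8% carried an ectopic site, and of those in genes 3.86%. Gene sites were mostly at gene edges. Of the 791, 525 (66.4%) were centred within 100 bp of a start and 186 (23.5%) within 100 bp of an end, and only 9 were over 500 bp from both. Over all sites the median distance to the nearest start of a gene of any kind was 198 bp, against 454 bp for input nucleosomes. The median distance to the nearest end was 296 bp, against 557 bp. Starts of protein-coding genes were nearer than ends for 64.01% of sites (62.5 to 65.5%) and for 54.6% of input nucleosomes.

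Around gene starts the sites formed a narrow maximum at the start and a broader one upstream. The richest 20 bp class, from 0 to 20 bp downstream of the start, held 347 centres, and the upstream maximum, 200 to 220 bp before the start, held 167. Between these maxima the lowest class held 78 centres, and 140 to 160 bp into the gene there was 1. As a share of the nucleosomes mapped in the same strain, 26.7% of those within 100 bp of a start carried a site (25.5 to 27.9%), and 22.5% of those from 100 to 500 bp upstream (21.6 to 23.5%). This was true for only 1.10% from 100 to 300 bp into the gene (0.826 to 1.46%), beside 10.04% of all nucleosomes. The share dropped within a short distance. It was 35.3% from 20 to 40 bp inside the start, 16.8% from 40 to 60 bp and 3.86% from 100 to 120 bp.

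Past gene ends the share was higher still. Of the input nucleosomes centred 100 to 300 bp past an end, 38.4% carried an ectopic site (36.7 to 40.1%), and in the class from 280 to 300 bp, 47.3% did (41.7 to 53.0%). Of those from 100 to 500 bp before the end, 3.01% did. In number the sites near ends were not more frequent, with 1374 centres from 100 to 300 bp past an end and 1394 within 100 bp of a start, because fewer nucleosomes were mapped past ends (3182 against 5401). The same site can be counted at both, since 571 sites lay from 100 to 300 bp past an end and also from 100 to 500 bp upstream of a start. Sites from 100 to 300 bp past an end had a median width of 91 bp, and those within 100 bp of a start 71 bp. The 198 sites over 500 bp from any protein-coding start or end made up 4.92% of the list, against 26.1% of input nucleosomes.

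**Figure D4:**
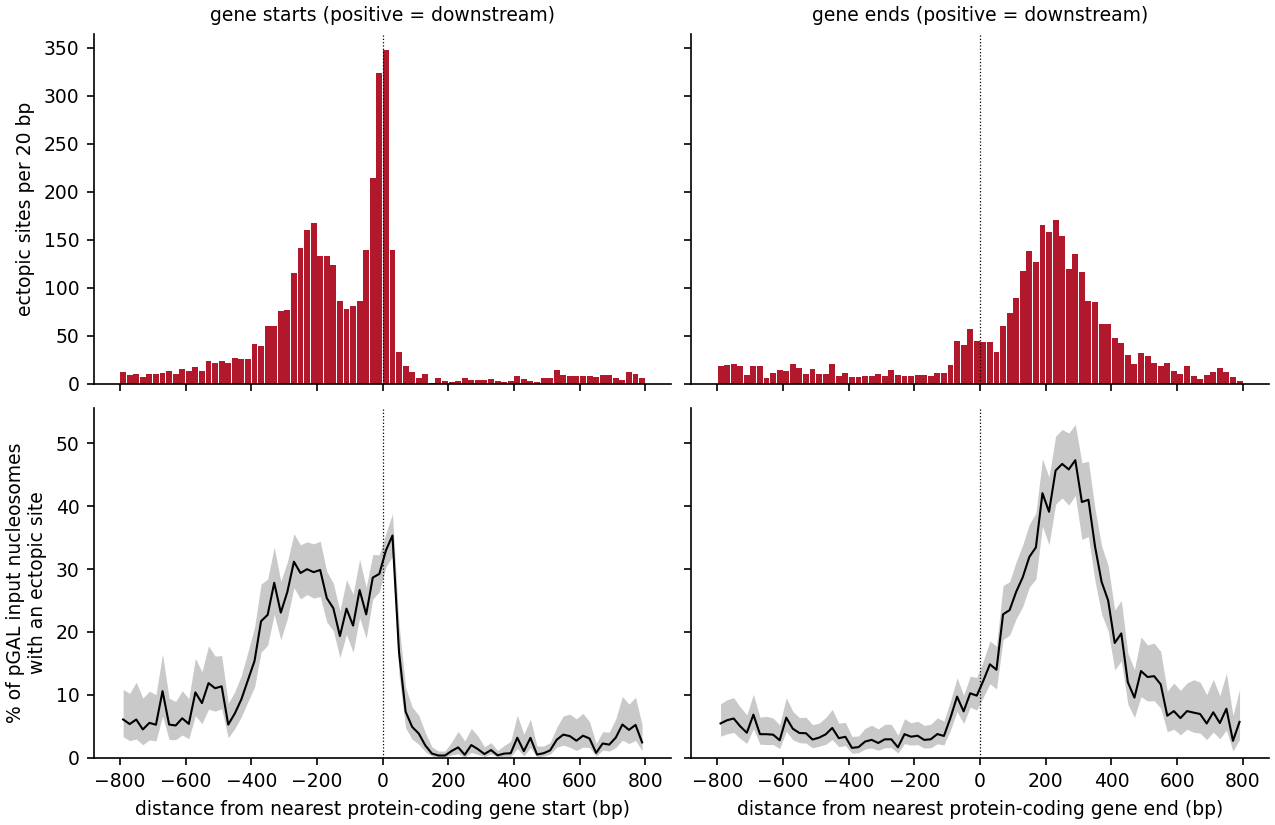
Number of ectopic site centres in classes of 20 bp (top) and percent of pGAL-3Flag-CSE4 input nucleosomes that carry an ectopic site (bottom, with the 95% Wilson interval in grey) by distance in bp from the nearest protein-coding start (left) or end (right), with downstream positive and classes under 20 input nucleosomes left out below. Centres are most frequent at the start itself, 347 in a class, while the share of nucleosomes with a site is highest past gene ends, at 47.3%.

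Regions between genes were then compared by the orientation of their flanking genes. Over all lengths a site was centred in 50.4% of 3000 tandem regions (48.6 to 52.2%), in 38.6% of 1618 divergent ones (36.2 to 40.96%) and in 22.7% of 1604 convergent ones (20.7 to 24.8%). Convergent regions were also the shortest, with a median of 219 bp against 390 bp for tandem and 501 bp for divergent regions, and the order changed with length. Among regions over 400 and up to 600 bp long, a site was centred in 64.5% of tandem regions (60.9 to 67.9%), which hold a gene end and a gene start. This was the case in 57.5% of convergent ones (49.4 to 65.3%), which hold ends only, and in 38.8% of divergent ones (33.5 to 44.3%), which hold starts only. Per mapped input nucleosome, these regions held 0.365, 0.390 and 0.223 sites. Of the 717 convergent regions up to 200 bp long, 13 held a site (1.81%), against 15.99% of tandem and 12.3% of divergent regions of that length. Between 200 and 400 bp, convergent and divergent regions had sites in 30.6% and 30.7% of cases, and tandem regions in 45.1%. Over 600 and up to 1000 bp the shares were 62.7% for convergent (51.9 to 72.3%), 59.4% for tandem (54.6 to 63.99%) and 46.3% for divergent regions (41.5 to 51.2%). The region with the most sites, 6, was the divergent one between IRC22 and MNN1 that holds CEN5, with a length of 2541 bp, and the next, with 5, lay upstream of CLB1, a B-type cyclin gene.

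Named by gene, the promoter window of 500 bp before the start held an ectopic site in 3025 of 6413 nuclear genes (47.2%). The window of 500 bp past the end did so in 2608 (40.7%), and the gene itself held a centre in 804 (12.5%). For 1941 genes (30.3%) none of these did. Most promoter windows with a site had 1 (2347 genes), while 647 had 2 and 31 had 3, the highest number. Among protein-coding genes, 1397 had a centre from 100 to 400 bp upstream of the start only, 930 within 100 bp of the start only, and 470 at both. The share with a site at the start was 25.2% where there was an upstream site (23.3 to 27.2%) and 22.5% where there was none (21.2 to 23.8%). These intervals overlap. An input nucleosome was present in both zones for 79.1% of the genes.

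The 10 genes with the most sites and bases in the promoter window had 3 sites each, over 185 to 223 bp. They were MPD2, an endoplasmic reticulum disulfide isomerase, AFT2, an iron-responsive transcription factor, SNU13, a snoRNP and spliceosome protein, GAS2, a glucanosyltransferase, MRX14, MIH1, the mitotic phosphatase that opposes Swe1, ROD1, an arrestin-type adaptor, TOA2, a subunit of TFIIA, SEC1 and CIS1. In the MPD2 window 223 bp were covered, or 44.6%. The 3′ windows with the most sites also had 3 each, in 12 genes, of which the 10 with the most bases covered are named. YIG1 and DUF1 were among them, and they lie directly upstream of AFT2 and MPD2, so that 1 intergenic region was counted for both genes. The same holds for FKS1, the glucan synthase gene, and GAS2. The rest of the 10 were SEN34, a tRNA splicing endonuclease subunit (246 bp, 49.2% of the window), YTA7, a chromatin-bound AAA ATPase, the snoRNA gene SNR52, TRX1 (thioredoxin), CIT3, CDC25, the exchange factor of Ras, and CHS1. Inside genes, the maximum was again 3 centres, in TLC1, the telomerase RNA gene (233 bp), in the noncoding RUF22 and in PEP3, a vacuolar trafficking gene. BSC4 had 2, over 51.01% of its 396 bp. YNCB0008W, an antisense transcript across the GAL1-GAL10 locus, had 2, which are those of the GAL1-GAL10 promoter.

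Gene groups differed in which side was occupied. The cytosolic ribosomal protein genes, most of which are transcribed at a high rate, had a site in the promoter window in 18 of 137 cases (13.1%, 8.48 to 19.8%), against 47.2% of all genes. In the 3′ window it was 94 (68.6%, 60.4 to 75.8%), against 40.7%. The glycolytic genes had a site past the end in 16 of 18 cases (88.9%, 67.2 to 96.9%) and in the promoter in 8. Only HXK1, a hexokinase, and TDH2, a glyceraldehyde phosphate dehydrogenase, had none past the end. The bases covered there ran from 41 bp for GPM1, phosphoglycerate mutase, to 346 bp in 2 sites for TPI1. PGK1, phosphoglycerate kinase, had 221 bp past its end and 0 sites in its promoter. The heat shock chaperone genes had a site past the end in 14 of 18 cases (77.8%, 54.8 to 91.0%) and in the promoter in 4 (22.2%, 9.001 to 45.2%). The Hsp90 genes HSP82 and HSC82 had 221 and 131 bp past the end and 0 in the promoter. For the Hsp70 genes, SSA2 had 221 bp past its end, and SSA1 had no site on either side.

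In the kinetochore and centromere genes the promoter was the side more often occupied, with 33 of 47 promoter windows occupied (70.2%, 56.0 to 81.3%) and 19 3′ windows (40.4%, 27.6 to 54.7%). They also had more centres inside the gene, in 17 genes (36.2%) against 12.5% of all. Examples with 2 promoter sites were CBF1, which encodes the protein that binds centromere element I (212 bp), SPC105, the outer kinetochore scaffold (127 bp), BUB1, the checkpoint kinase (132 bp), and CHL4, of the inner kinetochore (112 bp). MTW1, of the MIND complex, had 2 centres inside the gene. MIF2, the yeast CENP-C, had 1 site across its start. SCM3, the Cse4 chaperone, had 0 on either side. CSE4 itself is in this list, and its sites are among those of the construct loci. Genes of chromatin remodelers and histone chaperones had sites in 31 of 51 promoter windows (60.8%, 47.1 to 72.97%) and 20 3′ windows (39.2%, 27.03 to 52.9%), against 47.2% and 40.7% of all genes. The promoter interval reached down to the share of all genes. With 2 promoter sites these included HIR2, a subunit of the HIR chaperone, RTT106, an H3-H4 chaperone, NHP10, of the INO80 complex and near CEN4, and SWI1, of the SWI/SNF complex. INO80 itself had only a site of 121 bp past its end, as did SPT16, of the FACT complex, and SWR1.

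**Figure D5:**
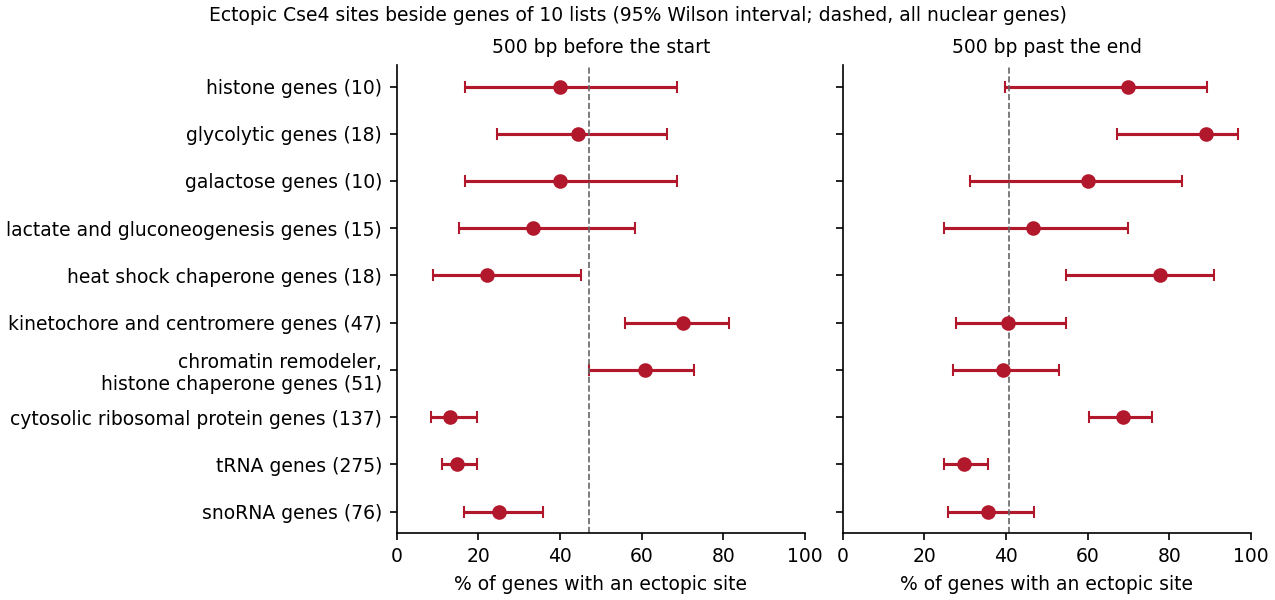
Percent of genes with an ectopic site (horizontal axes) in the 500 bp before the start (left) and past the end (right) for 10 gene lists, with the number of genes in parentheses, 95% Wilson intervals as bars and the shares of all nuclear genes, 47.2% and 40.7%, as dashed lines. Ribosomal protein genes lie left of the line for starts and right of it for ends, and kinetochore genes lie right of the line for starts.

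The histone genes had a site in 4 of 10 promoter windows and 7 of 10 3′ windows. HTA1, an H2A gene, had 91 bp past its end, and its divergent partner HTB1 142 bp, while their promoter windows held 0. HHT2 and HHF2, an H3 and H4 pair, had 0 on either side, and HHT1 and HHF1 had 40 and 41 bp in the promoter from the same intergenic region. With 10 genes the intervals (16.8 to 68.7% and 39.7 to 89.2%) include the shares of all genes. The galactose genes had sites in 4 promoter windows of 10 (16.8 to 68.7%) and in 6 3′ windows (31.3 to 83.2%), with intervals that include the shares of all genes. The occupied promoters of GAL1, GAL10 and GAL7 held sites of the construct loci. GAL7 had 304 bp past its end and PGM2 252 bp in 2 sites, and GAL3, GCY1 and MTH1 had none at all. The genes of lactate use and gluconeogenesis had 5 promoter windows of 15 (33.3%, 15.2 to 58.3%) and 7 3′ windows (46.7%, 24.8 to 69.9%), likewise with intervals that include 47.2% and 40.7%. JEN1, the lactate permease, had a site of 61 bp before and 111 bp past the gene, and CYB2, a lactate dehydrogenase, had 1 site past its end only.

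Short noncoding genes and origins were touched to a different degree. Of 275 tRNA genes, 21 (7.64%) were overlapped by a site and 41 (14.9%) had one in the 500 bp before the start, against 47.2% of all genes. Of 384 Ty long terminal repeats, 26 (6.77%) were overlapped. Of 76 snoRNA genes, 2 were overlapped. Few nucleosomes were mapped on these elements. Of those that touched a tRNA gene, 14.4% carried a site (9.60 to 20.99%), as did 9.57% at the long terminal repeats (6.89 to 13.1%) and 4.76% at snoRNA genes (1.63 to 13.1%), intervals that each include the 10.04% of all nucleosomes. Replication origins were overlapped in 165 of 352 cases (46.9%, 41.7 to 52.1%), and 39.7% of the input nucleosomes that touched an origin carried a site (35.5 to 44.0%). Of the input nucleosomes in intergenic DNA, 22.8% did. With 500 bp added on each side of the origins the share was 21.5% (19.6 to 23.6%).

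Nearly all sites coincided with a mapped nucleosome. The centre of 3376 sites (83.9%, 82.7 to 85.0%) lay within 73 bp of a nucleosome centre in the inputs of both strains. A further 299 (7.43%) matched only the input of pGAL-3Flag-CSE4, 143 (3.55%) only that of 3Flag-CSE4, and 208 (5.17%) neither. The own input holds 39777 nucleosomes, and the share of matches to be had from their density alone was not computed. Of the 3675 sites on an own-input nucleosome, 2756 (74.99%) were within 20 bp of its centre, at a median of 10 bp, which is the step of the lists. Nucleosomes mapped only in the overexpressing strain carried sites less often. Of the own-input nucleosomes without a counterpart in the 3Flag-CSE4 input, 5.95% carried a site (5.44 to 6.51%), against 11% of those with one (10.7 to 11.3%). Input nucleosomes with a site had a median width of 101 bp, and those without one 91 bp. An overlap of 1 bp is met more easily by a wider input peak, and the part of this definition in the difference was not tested.

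The same sites were looked up in the psh1Δ strains, which the rule did not use. In psh1Δ pGAL-3Flag-CSE4, 4016 of the 4026 were overlapped (99.8%, 99.5 to 99.9%). The overlapping peak was wider at 3956 sites (98.5%), with a median of 211 bp and a median width ratio of 2.58, and 418 peaks of that list joined 2 or more ectopic sites. The list has 14199 peaks, of which 25.2% overlapped a site. The share of all input nucleosomes that this list overlaps was not computed. The 99.8% thus has no background beside it, and how far it is particular to the sites is unknown. The 10 sites with no counterpart were narrow, with a median of 51 bp and a maximum of 101 bp, and 7 of them were in genes, among them XRS2, NOP56, MTR10 and KEL3. In psh1Δ 3Flag-CSE4, without overexpression, 49 sites were overlapped (1.22%, 0.922 to 1.61%), and these make up 49 of the 66 peaks of that list (74.2%). The rule had removed every pGAL-3Flag-CSE4 peak that overlaps 1 of the 17 peaks of 3Flag-CSE4. Peaks of the psh1Δ list that match only such a peak could not be counted. The 74.2% is therefore not the share of that list found again under overexpression. The 49 sites were wider in pGAL-3Flag-CSE4 than the rest, with a median of 121 bp against 71 bp. Of the 49, 33 were pericentromeric and 16 lay elsewhere. These 16 included 10 on chromosome XI, among them the DHR2-PSG1 site of 341 bp, sites on either side of CSE4, and sites at MIF2 and SPC42, a spindle pole body gene. Further ones lay beside HO on chromosome IV (46050 to 46200), KAR4 on chromosome III and PHO12 on chromosome VIII. The part of chromosome copy number in this count was not tested.

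Finally, DNA sequence was compared with that of input nucleosomes, in intergenic DNA alone because base composition differs between genes and the rest. The median A+T content was 63.4% in intergenic sites and 64.9% in intergenic input nucleosomes. In windows reaching 100 bp to each side of the centre, the centromere element III core TTTCCGAAA was found in 0.309% of intergenic sites (9 of 2914, 0.163 to 0.586%) and in 0.334% of intergenic input nucleosomes. The same letters are in 5 of the 16 centromeres, so that the exact core is a strict criterion. The Cbf1 site CACGTG was in 2.30% of sites and 2.00% of input nucleosomes, the Reb1 site TTACCCG in 2.54% and 2.87%, and TATAAA in 34.6% and 35.6%, with overlapping intervals in each case. The Rsc3 site CGCGC was in 6.90% (6.03 to 7.88%) against 5.42% (5.03 to 5.85%), and runs of 7 A or 7 T in 38.7% (37.0 to 40.5%) against 35.5% (34.6 to 36.4%). For the last pair of motifs the intervals lay apart, by a small margin. All matches were counted on either strand, and the printed sites of SLP1, PSG1 and MSB1 each hold such a run.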

How the data were processed

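Peak lists of 8 libraries were used, 1 input and 1 ChIP library from each of 4 strains, grouped by the deposited labels. The authors aligned read pairs with BWA to sacCer3, kept mononucleosome-sized fragments of high mapping score, subtracted the input, scaled the ChIP signal to the centromeres of the same strain, set the rDNA to 0 and called peaks with DANPOS2 above 1 height taken from the 3Flag-CSE4 centromeres. The settings for input peaks are not given in the sources used here. The deposited lists give peak start and end in bp, in steps of 10 bp. No peak height, p-value or read depth came with them, since the deposited score was always 0, and a stricter height could not be tried. Coverage tracks were not used. The common scale rests on the centromeres, and a change of Cse4 at centromeres would change every site.

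Positions count from 1 in R64, with annotation SGD R64-5-1, and 0 peaks ended beyond a chromosome. Centres were assigned in the order centromere, pericentromere (10 kb), telomere, origin, gene, intergenic. Overlap required 1 bp, windows were 500 bp, a nucleosome match was 73 bp between centres, and clusters chained centres up to 200 bp. A strain construct locus was the gene with 2 kb on each side. An input nucleosome carried a site when the peaks overlapped. Motifs were searched on both strands within 100 bp of the centre. Shares have 95% Wilson and densities 95% exact Poisson intervals. With 1 library per group no test was made. The members, gene lists and definitions were chosen with earlier results of these data known. Named are the genes altered in the strains, the quantitative PCR loci, the genes with the most sites (10 for promoters, 10 for 3′ windows, 5 for gene bodies), the 10 largest clusters and widest sites, the 5 longest stretches without a site, sites shared with or missing from the psh1Δ lists, and members of the gene lists. The zones around starts and ends, the comparison of adjacent nucleosomes and the length classes of intergenic regions were chosen after the data were seen. Alternatives are given in the closing section. Functions were tested on simulated data. Python 3.11.15, numpy 2.4.6, scipy 1.17.1, pandas 2.3.3 and matplotlib 3.10.9 were used.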

Additional observations from a re-analysis of the deposited data

How the results depend on the processing

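Each of 10 results was recomputed under alternatives that changed 1 choice at a time. Of 64 recomputed values, 46 stayed within the 95% interval of the reported value, or within 1.5 times of a count. Merging of peaks within 50 bp, leaving out sites within 1 kb of a 3Flag-CSE4 peak, and leaving out the loci used to build the strains moved none of the 10 results. With peaks of at least 50 bp, the median distance between neighbouring sites was 2393 bp, the share with a neighbour within 200 bp 12.3%, the clusters of 3 or more 14 instead of 24, and the promoter and 3′ shares 42.9% and 37.9%. Without the pericentromeric sites the intergenic share was 76.0%, which could only rise because the intergenic sites stayed the same. The promoter and 3′ shares were 45.3% and 39.0%. They were still taken over all genes and could only fall. Counting as intergenic only sites with no base in a gene gave 58.4%. With 150 bp between centres, 2.98% of sites had a neighbour and there were 2 clusters, and with 300 bp 35.5% and 48, so cluster counts depend on a distance that cuts through the spacing maximum. Windows of 250 bp gave 38.9% of promoters and 30.7% of 3′ ends, and protein-coding genes alone 49.1% of promoters, with no further removal of dubious genes because the annotation used has no such class. The share on a nucleosome, 91.3%, was 87.4% on the 3Flag-CSE4 input and 82.7% at 40 bp. Chromosome XII has neither the highest nor the lowest density, so leaving it out could not change the ratio of 1.78 and is no check of it. No paired analysis was possible because each group has 1 library. The lists hold no depth per site, and by the totals the study states the 3Flag-CSE4 and pGAL-3Flag-CSE4 ChIP libraries were of unequal depth, so a missing site is a signal below the height used for calling at that depth.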

Other observations

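The position of Reb1 matches relative to the sites differed from that in the input. Reb1 is a general regulatory factor that binds promoters and keeps nucleosomes away. Among 2914 intergenic ectopic sites, the nearest TTACCCG match was within 24 bp of the centre in 12 (0.412%, interval 0.236 to 0.718%), and among 11673 intergenic input nucleosomes in 167 (1.43%, 1.23 to 1.66%). It lay 100 to 124 bp from the centre in 54 sites (1.85%, 1.42 to 2.41%) and in 0.771% of input nucleosomes (0.628 to 0.947%). From 125 to under 150 bp the shares were 1.72% and 1.79%. The distance was examined after the data were seen, and its relation to the sites was not tested.

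Runs of 7 A or 7 T had a similar offset. The nearest run was 75 to 99 bp from the centre in 11.2% of intergenic sites (10.1 to 12.3%) and in 6.48% of intergenic input nucleosomes (6.04 to 6.94%). Within 24 bp the order was the reverse, with 7.72% (6.81 to 8.75%) and 11.7% (11.1 to 12.3%).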
